A study of Mus musculus with 8 samples.

Results

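Purines and pyrimidines are the bases of DNA, RNA and the nucleotide cofactors, and the genes described here encode the enzymes that make, reclaim and break them down. The list holds 33 mouse genes, grouped by the known function of their enzymes and picked with earlier results of these data known, and 32 of them had at least 1 probe set annotated to that gene alone, of 18193 genes so named on the array. The 32 genes had 76 probe sets between them and 20 had more than 1. Each gene was therefore summarised by its brightest probe set, the one with the highest mean intensity over all arrays. The others are given for some of the genes where they differed. Impdh2 was not analysed here.

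RNA abundance was measured on Affymetrix oligonucleotide arrays in CD8+ cells from mouse spleen, either wild type (strain C57BL/6) or from Elf4-/- KO mice, which lack the ETS family transcription factor ELF4. The background strain of the knockout, the construction of its allele, the animals' ages and any pooling of animals are not given in the sources used here, and no other allele or agent is named as shared by the groups. Cells were either untreated, called naive, or stimulated for 3.5 days on plates coated with antibody to CD3, together with anti-CD28, in serum-containing RPMI with T-stim, called activated. Each of the 4 groups had 2 arrays, and the labels do not say that these came from separate mice or cultures, so the p-values reflect no more than the spread among these arrays, part of which may be technical. The number of arrays limits the precision of every comparison.

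Cells build purines step by step on an activated ribose, PRPP, until they reach IMP, which is then turned into AMP or GMP. Pyrimidines are assembled as orotate and joined to PRPP to give UMP and then CTP, and the folate-borne carbon units that purine and thymidylate synthesis consume come largely from serine. Salvage enzymes instead recycle free bases and nucleosides. T cells switch from a quiescent to a rapidly dividing state on stimulation, and their development and survival are known to be sensitive to loss of the nucleoside-degrading enzymes ADA and PNP.

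Several features of the whole series touch the results. Elf4 read 116, 199, 165 and 192 intensity units on the naive arrays (both wild-type arrays, then both knockout arrays) and 83.6, 134, 76.2 and 80.6 on the activated arrays with its brighter probe set, and its other probe set read 1.92 to 112. Neither was called by genotype (limma, adjusted p = 0.373 to 0.891), and the position of these probes relative to the deletion was not analysed here. The genotype labels thus have no check from Elf4. The labelled cell type was checked against 5 T cell markers, whose summed intensity was 61943 to 79466 before and 18700 to 25471 after activation. Cd8a read 14240 to 17150 before and 4288 to 6290 after activation, while Cd4 stayed at 18 to 43.1. The 3'/5' signal ratio of Actb, which grows as RNA degrades, was 1.96 to 2.5 before and 5.9 to 11.1 after activation, and the Lys spike-in control read 989 to 1654 and 62726 to 78734. Naive arrays carried the male pattern, with Xist at 60.3 to 172, and activated arrays the female pattern, with Xist at 7703 to 10011. The array-file labels of the states also belong to different series, and those of the 2 naive wild-type arrays are the same although their values differ. Activation, sex, Actb ratio, spike-in level and array series therefore cannot be told apart in any comparison of states below. Prps1, Prps2 and Hprt are X-linked, as is Ctps2, which is not a member and is given below. In these bulk samples, fewer cells of a type and less RNA per cell cannot be told apart either.

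On activation most of the nucleotide genes rose together. In wild-type cells 22 of the 32 members were higher after activation and 0 were lower, with 10 not called, while 21.3% of all 12783 named genes tested were higher and 24.1% lower. In the knockout 24 members were higher and 1 was lower, against 21.9% and 26.1% of all genes. The test was limma on log2(intensity + 16), with a Benjamini-Hochberg adjusted p under 0.05 over all probe sets tested as the threshold for a call. The median change of the members was 1.07 on the log2 scale in each genotype, and the median of all genes was -0.12. Both activation comparisons use their own naive arrays, and 22 genes were called higher in both. The members were not switched on from background: 31 of the 32 reached the median intensity of the array on all 8 arrays, the exception being Gda. With the log2 of the Actb ratio as a covariate, 2 members were called higher in wild-type cells and 0 in the knockout. That covariate follows the state, and its part in the changes was not tested. Of the cell type markers, the summed intensity of the 5 B cell markers measured was 26929 to 42002 before and 4316 to 6545 after activation, and that of both platelet markers, Pf4 and Ppbp, was 57.5 to 195 and 2939 to 3658. Their part in the results was not tested.

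**Figure D1:**
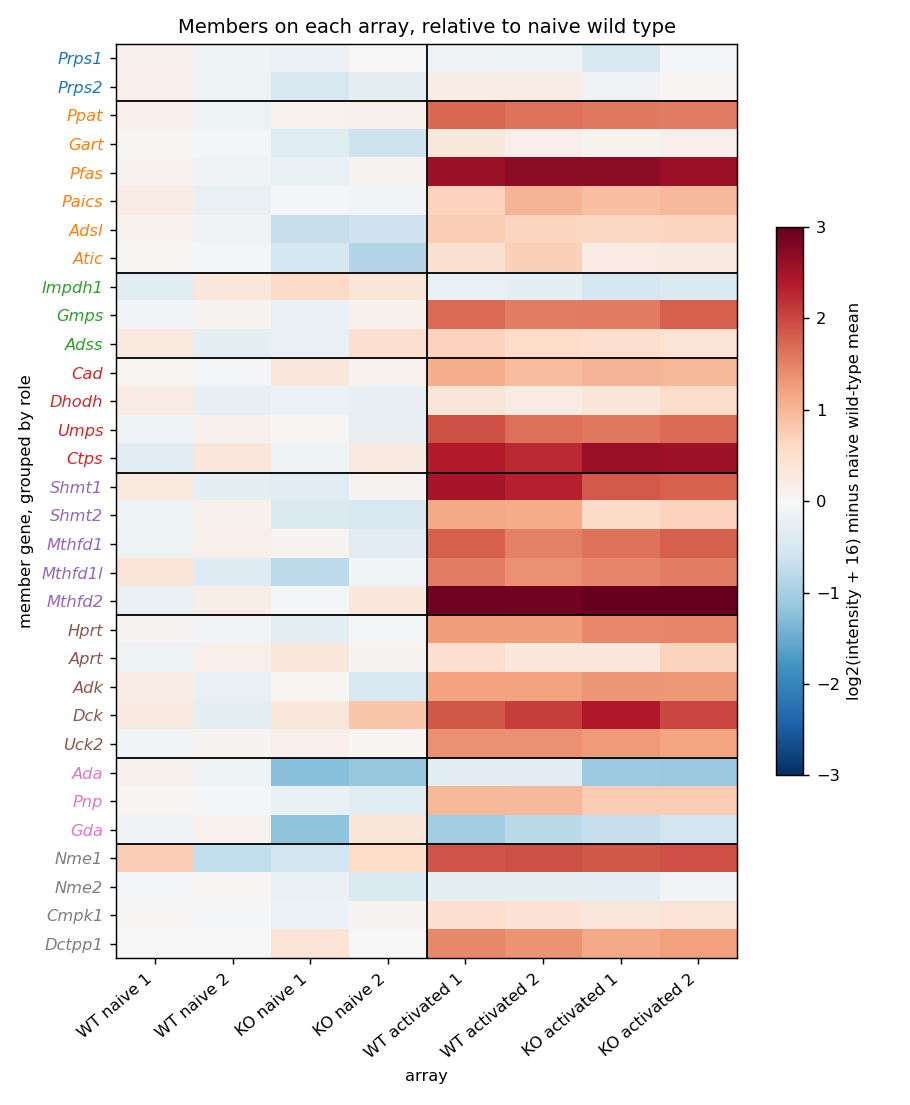
Each row is a member gene and each column an array; colour gives log2(intensity + 16) minus the mean of the naive wild-type arrays. The 4 activated arrays are above 0 for most rows. Those of Prps1, Impdh1, Ada, Gda and Nme2 are below 0, and those of Prps2 lie close to 0 on either side of it.

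The 6 enzymes that carry PRPP to IMP rose in the knockout (median log2 change 1.14) and 5 of the 6 did so in wild-type cells (median 0.77). Pfas, which encodes the synthase that adds an amide nitrogen midway through the route, had the largest change. Before activation it read 552 and 472 on the wild-type arrays and 439 and 543 on the knockout arrays, and afterwards 3176 and 3362, and 3387 and 3122. The activated arrays were all far above the naive arrays and the genotypes overlapped in each state. The rise was 6.38-fold in wild-type cells (log2 2.64, SE 0.17, adjusted p = 9.48e-07) and 6.63-fold in the knockout (log2 2.70, adjusted p = 7.68e-07). Ppat encodes the amidotransferase of the committed first step. It went from 1203 and 982 to 3628 and 3419 in wild-type cells and from 1163 and 1191 to 3288 and 3254 in the knockout, log2 changes of 1.68 and 1.46 (adjusted p = 8.98e-06 and 2.2e-05).

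The other enzymes of the route changed less. Paics, a bifunctional carboxylase and ligase, read 6199 to 8347 before and 11703 to 14599 after activation, and rose by 0.86 on the log2 scale in wild-type cells and by 0.99 in the knockout (adjusted p = 0.00124 and 0.000432). Adsl, the lyase that also acts on the way to AMP, rose by 0.68 and 1.29 (adjusted p = 0.00386 and 4.59e-05). Atic, which closes the purine ring, rose by 0.58 and 0.97 (adjusted p = 0.0133 and 0.000528). Its dimmer probe set was not called in wild-type cells (log2 0.68, limma adjusted p = 0.18). The wild-type call of Atic was lost without activated wild-type replicate 2 (log2 0.46, adjusted p = 0.129). Gart, a trifunctional enzyme, read 4819 and 4567 in naive and 5816 and 5202 in activated wild-type cells, and 3618 and 3057 in naive and 5016 and 5233 in activated knockout cells. Its brightest probe set was called in the knockout (log2 0.62, adjusted p = 0.00345) and not in wild-type cells (log2 0.23, adjusted p = 0.209). The difference between those changes was not called (log2 0.39, adjusted p = 0.548). The other 3 probe sets of Gart did pass in wild-type cells, with log2 changes of 1.07, 0.97 and 0.84 (adjusted p = 0.00184, 0.00214 and 0.0105), and 1 of the 3 did not pass in the knockout (log2 0.53, adjusted p = 0.0776), so the calls of Gart depend on the probe set in both genotypes.

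PRPP itself is made by the synthetases Prps1 and Prps2, and neither was called on its brightest probe set. Prps2 read 9862 and 7999 in naive and 10447 and 10442 in activated wild-type cells, and 6344 and 7423 in naive and 8219 and 9216 in activated knockout cells (log2 0.23 and 0.34, adjusted p = 0.214 and 0.0705). A dimmer probe set of Prps2 was called higher in wild-type cells (log2 0.85, adjusted p = 0.0115) and not in the knockout (log2 0.41, adjusted p = 0.175). The dimmest was not called in either genotype (log2 -0.44 and 0.38, limma adjusted p = 0.271 and 0.343). Prps1 read 2080 and 1755 in naive and 1776 and 1723 in activated wild-type cells, and 1702 and 1898 in naive and 1380 and 1831 in activated knockout cells. Its log2 changes were -0.13 and -0.18 (adjusted p = 0.617 and 0.466), and its naive and activated values overlapped in each genotype.

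Of the 3 genes beyond IMP, Gmps rose in both genotypes and Impdh1 fell in the knockout. Gmps, the GMP synthetase, read 1758 and 1977 in naive and 6047 and 5459 in activated wild-type cells, and 1634 and 2047 in naive and 5522 and 6498 in activated knockout cells. It rose by 1.62 and 1.70 on the log2 scale (adjusted p = 1.63e-05 and 9.87e-06), although its other 2 probe sets were not called in either genotype (log2 0.21 to 0.76, adjusted p = 0.109 to 0.621). Impdh1, a dehydrogenase of the preceding step towards GMP, read 1421 and 2299 in naive and 1553 and 1464 in activated wild-type cells, and 2701 and 2321 in naive and 1262 and 1341 in activated knockout cells. The knockout groups were apart and the wild-type groups overlapped. Impdh1 fell by 0.94 on the log2 scale in the knockout (1.93-fold lower, adjusted p = 0.00455), the change in wild-type cells was -0.26 (adjusted p = 0.371), and the difference between those changes was not called (log2 -0.68, adjusted p = 0.501). Adss, on the way to AMP, had changes of 0.62 and 0.33 that did not pass (adjusted p = 0.0624 and 0.31).

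**Figure D2:**
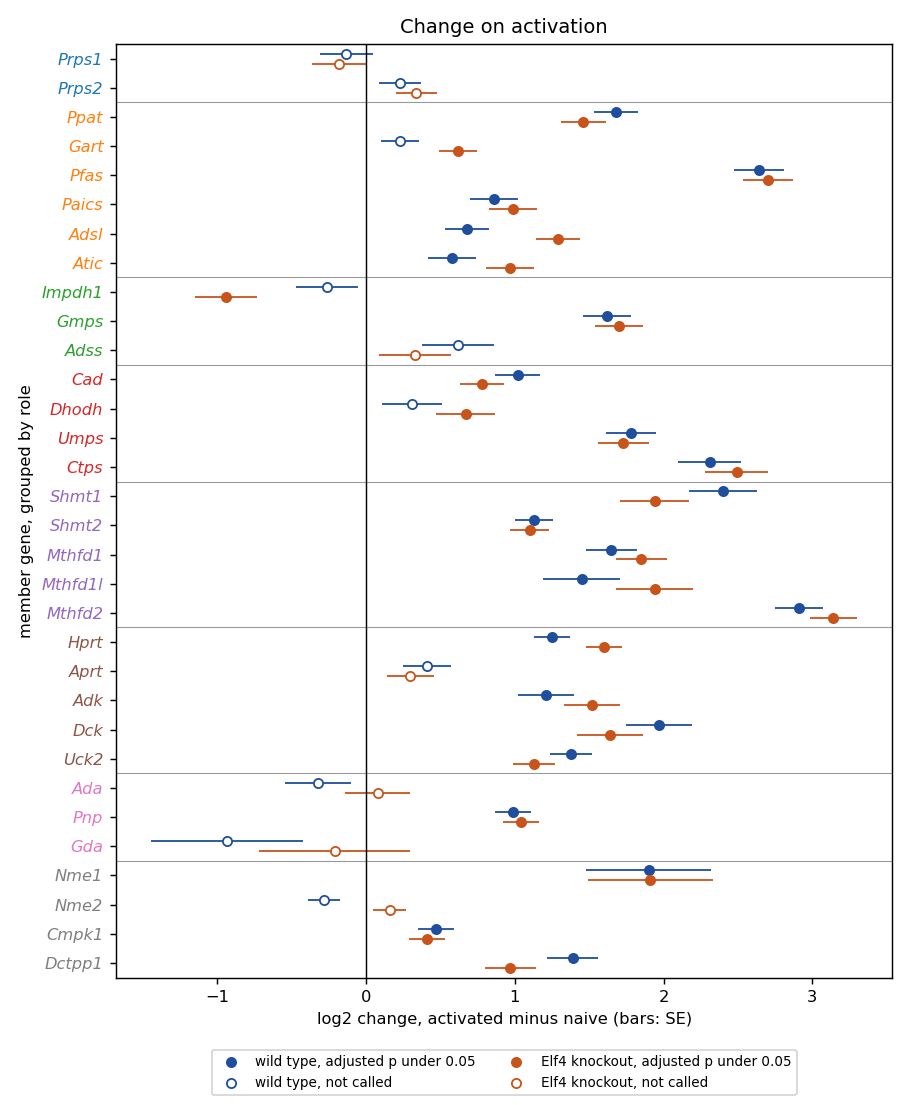
Points give the log2 change on activation of each member in wild-type and in knockout cells, with bars of 1 SE; filled points passed an adjusted p of 0.05. Filled points lie to the right of 0 with the exception of Impdh1 in the knockout at -0.94, and Mthfd2 lies farthest to the right at 2.91 and 3.14.

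All 4 genes of pyrimidine synthesis rose in the knockout (median log2 change 1.25) and 3 of 4 rose in wild-type cells (median 1.40). Ctps, which aminates UTP to CTP, read 1570 and 2547 in naive and 10493 and 9512 in activated wild-type cells, and 1841 and 2410 in naive and 12097 and 11640 in activated knockout cells. It thus rose 4.86-fold (log2 2.31, SE 0.21, adjusted p = 9.11e-06) and 5.58-fold (log2 2.49, adjusted p = 4.9e-06). Umps, which turns orotate into UMP, rose by 1.78 and 1.73 on the log2 scale. A dim probe set of Umps was not called (log2 1.18 and -0.02, limma adjusted p = 0.185 and 0.984). Cad, whose protein joins the first enzymatic activities of the route, rose by 1.02 and 0.78 (adjusted p = 0.000301 and 0.00175). The dimmest probe set of Cad was not called (log2 -1.03 and 0.60, limma adjusted p = 0.273 and 0.531). Dhodh, the mitochondrial member, changed least. It read 1147 and 813 in naive and 1240 and 1158 in activated wild-type cells (log2 0.31, adjusted p = 0.253), and 855 and 807 in naive and 1243 and 1423 in activated knockout cells (log2 0.67, adjusted p = 0.0185). The knockout call of Dhodh was lost without naive knockout replicate 2 or without either activated knockout array (adjusted p = 0.0693, 0.0502 and 0.132), and its other probe set was not called (log2 0.50, adjusted p = 0.104).

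One-carbon enzymes had the largest median change of any role. All 5 rose in both genotypes, with a median log2 change of 1.65 in wild-type and 1.94 in knockout cells. Mthfd2, a mitochondrial dehydrogenase and cyclohydrolase of folate-bound carbon that is low in most resting adult tissues, read 1220 and 1593 on the wild-type arrays and 1362 and 1739 on the knockout arrays before activation, and 10686 and 10444 against 13618 and 13811 after it. It rose 7.51-fold in wild-type cells (log2 2.91, SE 0.16, adjusted p = 3.22e-07) and 8.84-fold in the knockout (log2 3.14, adjusted p = 1.87e-07), and its other probe set by 2.45 and 2.64. Its mitochondrial partner Mthfd1l, the formyl-tetrahydrofolate synthetase, rose by 1.45 and 1.94, and the cytosolic trifunctional enzyme Mthfd1 by 1.65 and 1.85.

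The serine hydroxymethyltransferases, which pass the carbon of serine to folate, both rose. Cytosolic Shmt1 read 508 and 330 on the wild-type arrays and 323 and 433 on the knockout arrays before activation, and 2338 and 2137 against 1508 and 1443 after it. Its rise was 5.34-fold in wild-type cells (log2 2.40, SE 0.23, adjusted p = 1.46e-05) and 3.91-fold in the knockout (log2 1.94, adjusted p = 6.21e-05), and its other 3 probe sets rose as well. Mitochondrial Shmt2 read 4535 and 5417 on the wild-type arrays and 3639 and 3525 on the knockout arrays before activation, and 10990 and 10679 against 7382 and 8050 after it. It rose 2.18-fold (log2 1.13, SE 0.13, adjusted p = 4.7e-05) and 2.15-fold (log2 1.10, adjusted p = 4.83e-05). This probe set of Shmt2 is of a kind that can cross-hybridise. The next brightest, which is not, rose by 1.15 and 0.76 (limma adjusted p = 0.00219 and 0.0205). Another was called in wild-type cells (log2 1.92) and not in the knockout (log2 0.87, adjusted p = 0.218), and the dimmest was not called (log2 -0.08 and 0.46).

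Of the 5 salvage genes 4 rose in both genotypes, with medians over the 5 of 1.25 and 1.52. Dck, the kinase of deoxycytidine and other deoxynucleosides, read 3532 and 2440 in naive and 10751 and 12468 in activated wild-type cells, and 3640 and 5256 in naive and 15630 and 11912 in activated knockout cells. It rose 3.89-fold in wild-type cells (log2 1.97, adjusted p = 3.92e-05) and by 1.64 on the log2 scale in the knockout (adjusted p = 0.000131). The 2 dimmer probe sets of Dck were called in wild-type cells (log2 1.74 and 1.95) and not in the knockout (log2 0.47 and 0.45, adjusted p = 0.402 and 0.405). Hprt, which reclaims hypoxanthine and guanine, went from 6891 and 6246 to 15592 and 15676 in wild-type cells and from 5435 and 6399 to 17826 and 18074 in the knockout, log2 changes of 1.25 and 1.60 (adjusted p = 1.34e-05 and 2.03e-06). Adk, the adenosine kinase, rose by 1.21 and 1.52, and Uck2, the uridine and cytidine kinase, by 1.38 and 1.13. Some dimmer probe sets of Uck2 were not called in the knockout (log2 0.45 and 0.14, limma adjusted p = 0.224 and 0.712). Aprt, the adenine counterpart of Hprt, read 5841 and 7181 in naive and 9149 and 8068 in activated wild-type cells and was not called in either genotype (log2 0.41 and 0.30, adjusted p = 0.0594 and 0.148).

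The mean change of the de novo genes was slightly below that of the salvage genes, and the gap depended on how the genes were summarised. Over the 13 de novo genes, which are those from PRPP to IMP, from IMP to AMP and GMP, and of pyrimidine synthesis, 9 rose in wild-type and 11 in knockout cells. Their mean log2 change was 1.08 in wild-type cells against 1.24 for the 5 salvage genes, a difference of -0.16 with a spread between replicates of 0.07. In the knockout the means were 1.14 and 1.24, a difference of -0.10 with a spread of 0.06. That spread combines the SDs between the arrays of each group and leaves out the spread between genes. In wild-type cells the de novo changes ran from -0.26 to 2.64 and the salvage changes from 0.41 to 1.97. With medians in place of means the differences were -0.39 in wild-type cells (0.86 against 1.25) and -0.53 in the knockout (0.99 against 1.52). These differences are described without a test, and that of the knockout changed sign with quantile normalization (0.04) and with the 2nd brightest probe set of each gene (0.16). Array by array, the de novo mean minus the salvage mean, set to 0 in naive wild-type cells, was -0.04 and 0.04 on the wild-type arrays and -0.22 and -0.18 on the knockout arrays before activation, and -0.13 and -0.19 against -0.34 and -0.27 after it.

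**Figure D3:**
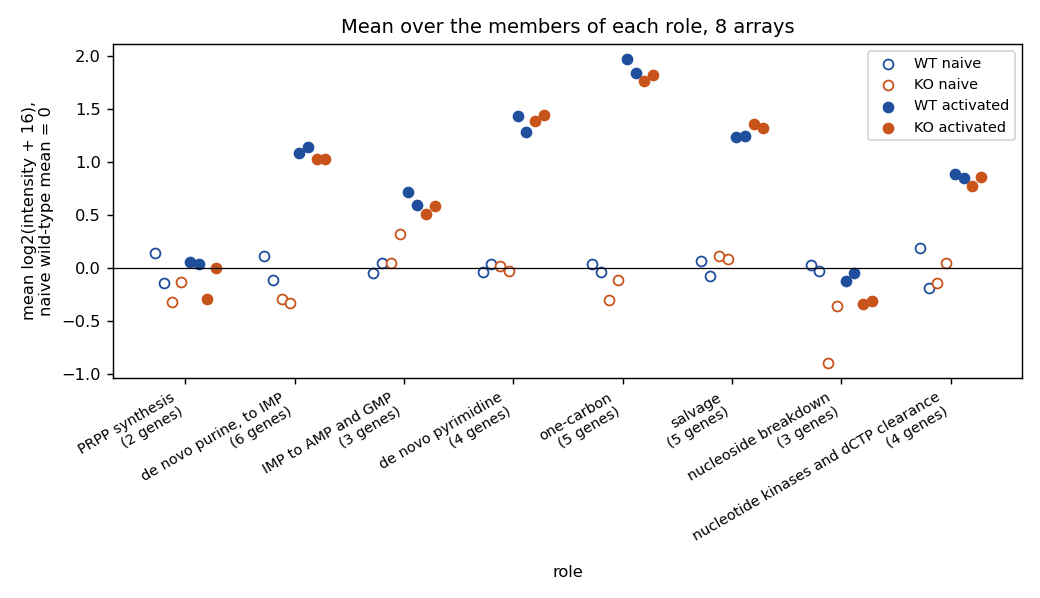
Each point is 1 array and gives the mean log2(intensity + 16) over the members of a role, minus the naive wild-type mean. The activated arrays lie at 1.76 to 1.97 for the one-carbon genes, 1.24 to 1.36 for salvage and 1.03 to 1.14 for PRPP to IMP, and at -0.34 to 0.06 for PRPP synthesis and nucleoside breakdown.

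Genes of nucleoside breakdown did not move as a block. Pnp, the purine nucleoside phosphorylase, read 3065 and 2833 in naive and 5933 and 5803 in activated wild-type cells, and 2521 and 2370 in naive and 5033 and 5020 in activated knockout cells. It rose by 0.99 and 1.04 on the log2 scale (adjusted p = 9.88e-05 and 6.4e-05). Ada, the adenosine deaminase, had changes of -0.32 and 0.08 that did not pass (adjusted p = 0.29 and 0.795). Gda, the guanine deaminase, was dim throughout at 52.6 to 187 intensity units and was not called (log2 -0.93 and -0.21, adjusted p = 0.178 and 0.771).

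Among the nucleotide kinases the paralogs Nme1 and Nme2, which pass phosphate between nucleoside di- and triphosphates, gave different readings. The brightest probe set of Nme1 read 15158 and 5360 on the wild-type arrays and 6017 and 13255 on the knockout arrays before activation, and 33035 to 34294 on all 4 arrays after it. It was called higher in both genotypes (log2 1.90 and 1.91, adjusted p = 0.0041 and 0.00369), with naive arrays that lay far apart within each genotype. The other Nme1 probe set read 6080 and 6974 in naive and 7849 and 7072 in activated wild-type cells and was not called (log2 0.19 and 0.36, adjusted p = 0.308 and 0.0623). The near-identical Nme2 read 34571 and 36143 in naive and 29063 and 29330 in activated wild-type cells, and 30570 and 26070 in naive and 29467 and 33654 in activated knockout cells, with no call (log2 -0.28 and 0.16, adjusted p = 0.0755 and 0.294). The brightest Nme1 probe set is of a kind that can cross-hybridise, so the rise of Nme1 is uncertain. Cmpk1, the UMP and CMP kinase, rose by 0.47 and 0.41 (adjusted p = 0.0114 and 0.0218), calls that were lost without either activated array of the genotype (adjusted p = 0.0559 to 0.11) and, in the knockout, without naive replicate 1 (adjusted p = 0.12). Dctpp1, which clears dCTP, rose by 1.39 and 0.97.

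The promoters of the members, whether they changed or not, were searched for the E-box CACGTG, the core site of MYC and related factors, and for CCGGAA, a core of sites bound by the ETS family to which ELF4 belongs. Both strands of the 250 bases before the start of transcription were read from RefSeq sequences (build GRCm38.p6), which matched 30 of the 32 genes. The letter patterns cannot overlap each other. The E-box stood in 3 of the 30 promoters (10.0%), those of Paics, Atic and Nme1, against 6.86% of all 27025 genes (6.02% of their 32851 windows). CCGGAA stood in 11 of the 30 (36.7%), those of Prps1, Ppat, Umps, Ctps, Shmt2, Mthfd1, Hprt, Ada, Pnp, Nme1 and Cmpk1, against 13.6% of all genes (12.0% of windows). Prps1 and Ada among them were not called on activation. A match is a description of the letters and not a binding site. The stretches below are shown because they carry these matches in capitals, and run 5′ to 3′ on the strand of the gene. The positions given are those of the printed stretches. The stretch of Atic is chr1:71557096-71557155 (plus strand), with an E-box that begins 7 bases before the start. That of Nme1 is chr11:93968273-93968332 (minus strand), with its E-box 18 bases before. That of Paics is chr5:76951087-76951116 (plus strand), with its E-box 203 bases before.
Atic: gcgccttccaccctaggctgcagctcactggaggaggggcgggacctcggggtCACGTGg
Nme1: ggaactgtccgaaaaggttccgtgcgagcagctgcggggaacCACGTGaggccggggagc
Paics: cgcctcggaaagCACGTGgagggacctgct

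Matches to CCGGAA are shown for 3 genes that rose and that stand for different roles. The stretch of Ppat is chr5:76951579-76951608 (minus strand), in which the match reads as the reverse complement. That of Umps is chr16:33967039-33967098 (minus strand), and that of Shmt2 is chr10:127522606-127522665 (minus strand). Ppat and Paics lie on opposite strands with their first 277 bases overlapping, and the stretches searched before their starts do not overlap. Both rose in both genotypes.
Ppat: tgacgcgaccccgcTTCCGGgcggcccctc
Umps: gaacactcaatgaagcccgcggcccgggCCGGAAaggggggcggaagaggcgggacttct
Shmt2: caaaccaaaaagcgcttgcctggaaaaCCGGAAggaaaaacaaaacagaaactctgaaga

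Loss of Elf4 was set against the same genes in naive cells, in a study of how this factor controls CD8+ T cell proliferation. Ada was the only member of the 32 called, and it was lower in the knockout; 0.837% of all 12783 genes were called. Ada read 663 and 559 on the wild-type arrays and 248 and 270 on the knockout arrays before activation, and 482 and 489 against 278 and 273 after it. All 4 knockout arrays lay below all 4 wild-type arrays. The naive means were 611 ± 73.6 in the wild type and 259 ± 15.0 in the knockout (SD, n = 2), a level 2.36-fold lower (log2 -1.19, SE 0.22, 95% interval -1.68 to -0.70, limma adjusted p = 0.0493). That adjusted p lies close to the threshold. The call was lost on leaving out any 1 of the 8 arrays and held in 8 of 25 alternatives (limma adjusted p = 0.0381 to 0.437). Of these 8, 2 changed the choice of probe set and so could not affect Ada, which has 1. Another only added a log2 change of at least 1, which Ada at -1.19 already had. The direction held in 25 of 25, although the log2 difference itself stayed at -1.19 in many of them. With the replicate number as a block the adjusted p was 0.0932.

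The promoter of Ada holds 3 matches to CCGGAA. The nearest to the start begins 28 bases before it and lies within the stretch chr2:163750240-163750299 (minus strand). It is shown because Ada is the member that differed by genotype, and nothing is drawn from it about binding.
Ada: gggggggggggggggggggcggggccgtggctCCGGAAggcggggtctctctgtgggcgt

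Markers of other cells also differed between the naive groups. The summed intensity of 6 granulocyte markers was 311 and 490 in naive wild-type and 4447 and 19194 in naive knockout cells, with S100a9 at 46.3 and 19.5 against 695 and 2485. The 5 B cell markers summed to 29066 and 26929 against 30321 and 42002. Within them Igha, an immunoglobulin heavy chain gene, read 330 and 149 against 9201 and 16831 (log2 5.70, limma adjusted p = 0.00371). Ighm, another such gene, lay on the lower side in the knockout, at 25469 and 23957 against 18632 and 18897 (log2 -0.40, adjusted p = 0.225). Cd79a, Cd79b and Ms4a1 were not called (log2 0.13 to 0.69, adjusted p = 0.613 to 0.934). Of the 2 NK cell markers measured, Klra8 read 62.1 and 126 against 664 and 588, on a probe set that can cross-hybridise, and Ncr1 read 26 and 7.93 against 8.24 and 45.1. The 5 macrophage and monocyte markers summed to 1775 and 2286 against 3144 and 5556, and the proliferation genes Mki67 and Top2a to 425 and 625 against 1414 and 1929. The 5 T cell markers summed to 79466 and 71987 against 64315 and 61943. On activated arrays the granulocyte sum was 118 to 273 over both genotypes. The part of these markers in the naive differences was not tested.

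Of the other 31 members none passed in naive cells, although Atic did in 1 of 25 alternatives. In all, 8 of the 32 had an unadjusted p under 0.05 (limma), against 14% of all genes, and 22 of the 32 were on the lower side in the knockout, with a median of -0.09 against 0.02 for all genes. The genes from PRPP to IMP included 3 of those 8, which are named after their values were seen. Adsl read 1717 and 1488 against 980 and 1030 in the knockout (log2 -0.66, adjusted p = 0.101). Atic read 3027 and 2905 against 2057 and 1601 (log2 -0.70, adjusted p = 0.1), and Gart 4819 and 4567 against 3618 and 3057 (log2 -0.49, adjusted p = 0.179). These knockout arrays lay below the wild-type arrays for all 3 genes, while Ppat, Pfas and Paics overlapped. The other probe sets of Gart gave -0.35, -0.68 and -0.02, and the naive values of the dimmest overlapped between genotypes. Shmt2 had a difference of -0.47 (adjusted p = 0.179), although its other probe sets gave only -0.14 to -0.02. The largest difference on the higher side was that of Dck (log2 0.57, limma adjusted p = 0.325).

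**Figure D4:**
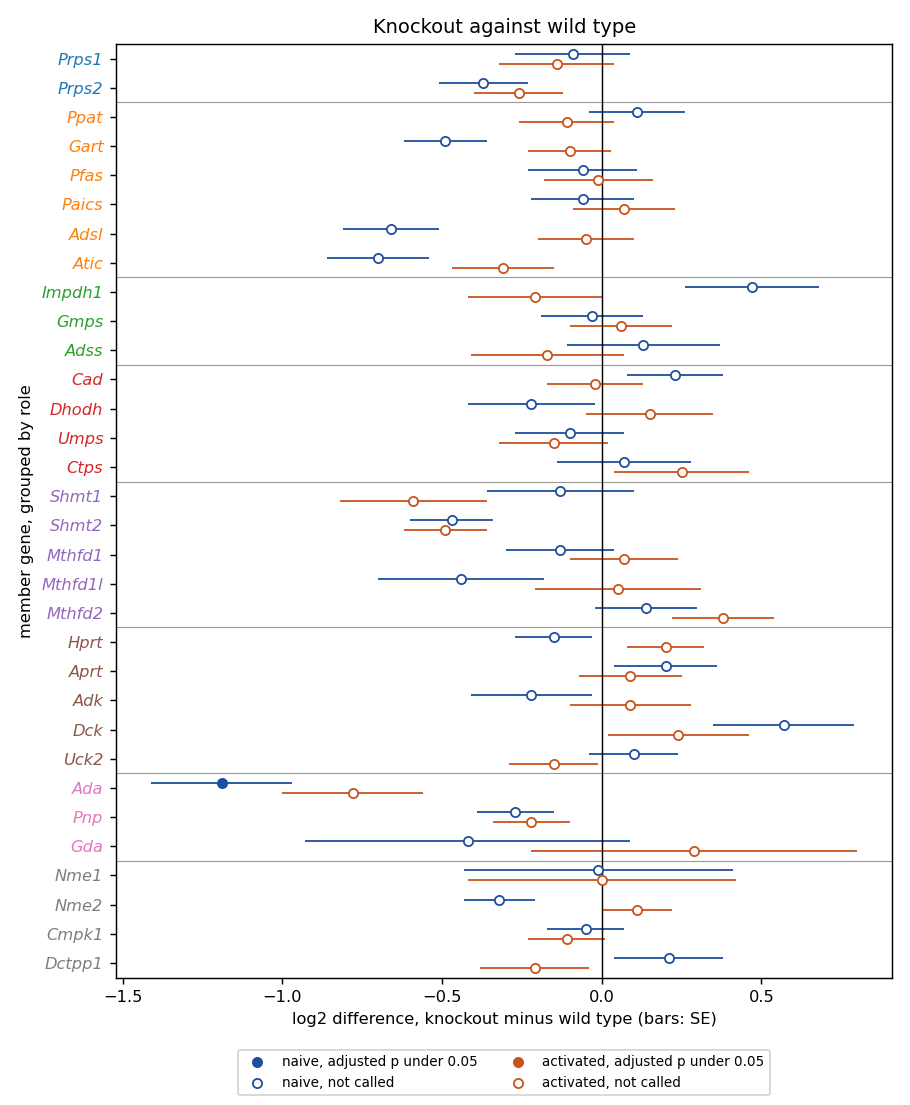
Points give the log2 difference, knockout minus wild type, of each member in naive and in activated cells, with bars of 1 SE; the 1 filled point is Ada in naive cells at -1.19. The other points lie between -0.78 and 0.57.

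In activated cells 0 of the 32 members were called (limma), against 0.289% of all genes, and 4 had an unadjusted p under 0.05, against 12.6% of all genes. The median difference was -0.04. The 4 are named after their values were seen. Ada was 1.76-fold lower in the knockout (log2 -0.78, 95% interval -1.27 to -0.29, adjusted p = 0.217), with values that did not overlap. Shmt1 was 1.52-fold lower (log2 -0.59, 95% interval -1.11 to -0.08, adjusted p = 0.397), although its next brightest probe set gave -0.06. Shmt2 was 1.4-fold lower (log2 -0.49, adjusted p = 0.177), although its other probe sets gave -1.08 to 0.41. Mthfd2 lay on the other side at 0.38 (95% interval 0.02 to 0.74, adjusted p = 0.451). These 95% intervals are not adjusted for the number of probe sets tested, and the 4 members were picked by their unadjusted p. None of the 4 passed after adjustment, which does not show that the genotypes were alike.

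**Figure D5:**
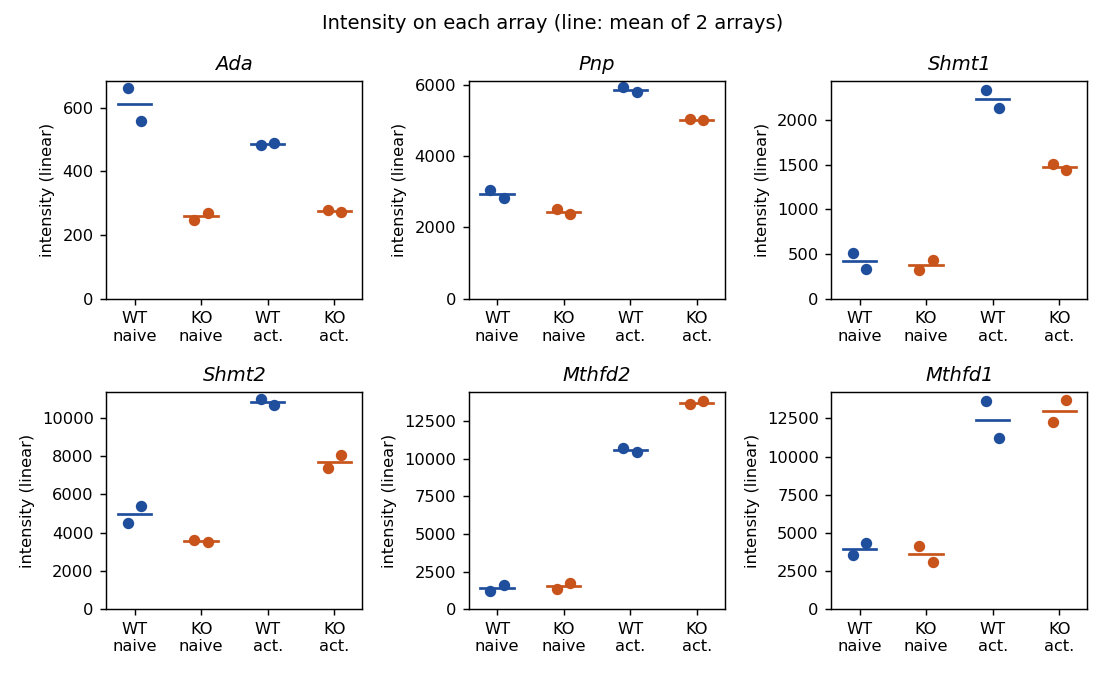
Intensity on each array on a linear scale from 0 for Ada, Pnp, Shmt1, Shmt2, Mthfd2 and Mthfd1; points are arrays and lines the means of 2 arrays. The Ada panel has both knockout groups, at 248 to 278, below both wild-type groups, at 482 to 663, and the other panels separate by state.

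Whether the effect of Elf4 loss depended on the state was tested as the difference between the genotype effects. None of the 32 members passed (limma, 0 called), against 0.0861% of all genes, and 3 had an unadjusted p under 0.05, against 11.6% of all genes. The median was 0.07. Adsl had a difference of 0.61 (adjusted p = 0.367) and Ada of 0.40 (adjusted p = 0.739), so the lower level of Ada in the knockout was not shown to differ between naive and activated cells.

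Genes of neighbouring routes gave a mixed picture on activation. Of 62 related genes tested on 5 lists, 24 rose and 18 fell in wild-type cells, and 25 rose and 17 fell in the knockout (median log2 changes 0.31 and 0.18). Over all genes 21.3% were higher and 24.1% lower in wild-type cells, and 21.9% and 26.1% in the knockout. The lists were written with earlier results of these data known. The list for deoxynucleotide and thymidylate metabolism had 6 of 10 higher in each genotype and 3 and 2 lower (medians 1.17 and 1.20). Rrm2, the regulatory subunit of ribonucleotide reductase, read 382 and 356 on the wild-type arrays and 723 and 795 on the knockout arrays before activation, and 26223 and 24486 against 25668 and 27869 after it. It rose by 6.04 and 5.11 on the log2 scale (adjusted p = 3.34e-09 and 6.57e-09). It was also the 1 related gene called by genotype in naive cells, where it was higher in the knockout (log2 1.01, adjusted p = 0.0132), on the same arrays on which Mki67 and Top2a read higher. That call held in 3 of the 8 fits that left out 1 array and was lost without naive knockout replicate 2 or any 1 of the activated arrays (adjusted p up to 0.0644). The brightest probe set of Rrm2, which gave that call, is of a kind that can cross-hybridise. The other probe sets of Rrm2 had naive differences of log2 1.48 and 0.97 and were not called (limma adjusted p = 0.202 and 0.401). Rrm1, the partner of Rrm2, rose by 3.19 and 2.59, the dUTPase Dut by 3.40 and 2.95, and the cytosolic thymidine kinase Tk1 by 3.99 and 3.15.

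Genes that supply serine and folate carbon rose without a call in the other direction, 9 of 16 in wild-type and 10 of 16 in knockout cells (medians 1.15 and 1.18). Psat1, an aminotransferase of serine synthesis, read 2205 and 1939 in naive and 24301 and 24872 in activated wild-type cells, and 1607 and 1242 in naive and 28938 and 30482 in activated knockout cells (log2 3.56 and 4.38, adjusted p = 4.34e-08 and 1.33e-08). Phgdh, which begins that route, rose by 1.63 and 1.89. Aldh1l2, a mitochondrial formyl-tetrahydrofolate dehydrogenase, rose by 3.64 and 5.10, and Ahcy, which hydrolyses S-adenosylhomocysteine, by 2.02 and 2.07.

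Calls went both ways among genes of transport and breakdown and among other kinases, as they did over all genes, and no test set these lists against the rest. Of 14 genes of nucleoside transport and breakdown, 3 rose and 6 fell in wild-type cells and 2 rose and 7 fell in the knockout (medians -0.33 and -0.32). Nt5e, the ectoenzyme CD73 that makes adenosine outside the cell, fell in both genotypes, by 2.24 on the log2 scale in wild-type cells (adjusted p = 0.000106 and 1.14e-05). The AMP deaminases moved apart, with Ampd1 lower by log2 -3.86 and -4.35 and Ampd2 higher by 1.15 and 1.08. The cytosolic nucleotidase Nt5c had changes of -0.84 and -0.46 (adjusted p = 0.000307 and 0.0118), and its knockout call was lost without either activated knockout array. Of 16 other kinases and phosphatases, 3 rose and 7 fell in wild-type cells and 4 rose and 6 fell in the knockout (medians -0.30 and -0.45). Ctps2, the paralog of Ctps, fell by 1.77 and 2.02, so the pair of CTP synthases moved in opposite directions. It read 5100 and 4382 in naive and 1370 and 1383 in activated wild-type cells, and 5665 and 5388 in naive and 1390 and 1320 in activated knockout cells. Dguok, the mitochondrial deoxyguanosine kinase, fell by 2.34 and 2.62, and Cmpk2 by 1.93 and 3.08, while the mitochondrial adenylate kinase Ak4 rose by 5.56 and 4.88. Among 6 regulators, 3 rose and 2 fell in each genotype (medians 0.62 and 0.38). Atf4, a factor that drives amino acid synthesis genes, rose by 1.10 and 1.71, and Mycn by 2.01 and 4.33. In wild-type cells the call of Atf4 was lost without activated replicate 2 (adjusted p = 0.0791), and that of Mycn without naive replicate 1 or either activated array (adjusted p up to 0.08). Atf4 kept its direction there in 22 of 25 alternatives. Mxd4, which competes with MYC for its partner MAX, fell by 2.50 and 2.53, and Mlxip by 1.14 and 1.21.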

How the data were processed

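Per the submitters' processing notes MAS5 made the deposited values, which are linear intensities, 1 for each probe set on each array (version not given in the sources used here). A trimmed mean of 500 on every array shows that they had been scaled. Arrays have no read depth, and 2 per group limit the precision.

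Of 45101 probe sets, 34945 had 1 gene symbol in the platform's annotation, 932 several and 9160 none, apart from 64 controls; 34741 symbols were updated through Entrez identifiers. Values were taken as log2(intensity + 16), so changes of dim genes are understated. Tested were the 27348 probe sets that reached the array median on 2 or more of the 8 arrays. Limma 3.58.1 in R 4.3.3 fitted 4 group means (lmFit, eBayes with trend; 4 residual and 6.7 prior degrees of freedom). The 5 contrasts were two-sided, with Benjamini-Hochberg adjustment over all probe sets tested and a threshold of 0.05. Folds are ratios of mean intensities. The script was tested on simulated data.

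The members and lists were chosen with earlier results of these data known. Values on every array are given for members called by genotype, for the largest rise and fall of a role in wild-type cells and for paralog pairs; of each related list, up to 4 genes with the smallest adjusted p are named. Genes shown beyond this rule, such as Ppat, Gart, Dhodh, Hprt and Aprt, were chosen after their values were seen. Of 75 related genes 65 had a probe set and 62 were tested. Same-numbered arrays did not deviate together (correlations -0.17 to 0.07), so replicate numbers were not treated as pairs. Alternatives covered the offset, scaling, filter, variance model, array weights, blocks, the Actb ratio, probe set choice and leaving out each array; the crossed block and the related genes' alternatives were added after the data were seen.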

Additional observations from a re-analysis of the deposited data

How the results depend on the processing

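All 22 activation calls in wild-type and 25 in knockout cells kept their direction in every alternative run. With the Actb ratio as a covariate, which separates the states, the members called fell to 2 higher in wild-type cells and to 0 higher and 0 lower in the knockout, with 0 by genotype in naive cells; related genes fell to 6 higher and 0 lower in wild-type and 0 higher and 0 lower in knockout cells, and 0 by genotype in naive cells. Impdh1 in the knockout gave 0 lower with a log2 change of at least 1 in addition, and 1 member was lower in wild-type cells in fits to the comparison's arrays alone and with the crossed replicate block. The naive genotype count was 0 with no offset, median centring, no filter, no trend, the comparison's arrays alone, array weights, and the replicate block, crossed or not. The replicate block left 22 and 24 activation calls higher, and apart from the naive genotype count it changed no member count by over 1.5 times. In activated cells 2 members passed with the comparison's arrays alone (Shmt1 and Shmt2) and 1 with array weights (Shmt2). For related genes the naive genotype count was 0 with no trend, the comparison's arrays alone, no cross-hybridising probe sets or the 2nd brightest probe set, and the activated count was 1 with an offset of 64, 3 with the comparison's arrays alone and 1 with array weights. De novo minus salvage on activation was -0.39 (medians) and -0.09 (no cross-hybridising probe sets) in wild-type cells, and -0.53 (medians), 0.04 (quantile) and 0.16 (2nd brightest) in the knockout; for genotype it was -0.40 in naive cells (2nd brightest) and -0.21 in activated cells (no cross-hybridising probe sets). Causes of these shifts were not tested. Leaving out 1 array at a time gave 20 to 24 members higher and 0 to 1 lower in wild-type cells, 22 to 25 higher and 1 to 1 lower in the knockout, and by genotype 0 to 1 in naive and 0 to 0 in activated cells, with 0 to 0 for the difference; for related genes 17 to 24 higher and 13 to 18 lower, 20 to 27 higher and 14 to 18 lower, 0 to 2 in naive and 0 to 1 in activated cells. De novo minus salvage then ranged from -0.20 to -0.12 in wild-type cells, -0.14 to -0.06 in the knockout, -0.24 to -0.16 by genotype in naive cells and -0.18 to -0.10 in activated cells. Median centring moved the median of all genes on activation in wild-type cells from -0.12 to 0.07. The fit to the comparison's arrays alone could not be made for the difference between states.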
